A study of Homo sapiens with 6 samples.

Results

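Most S100 proteins are small calcium sensors. The 10 S100 genes described here were measured in A549 cells, a human lung adenocarcinoma line, with and without silencing of NME2. NME2 encodes a nucleoside diphosphate kinase that is also known to bind DNA. The genes are S100P, S100A2, S100A3, S100A4, S100A6, S100A10, S100A11, S100A13, S100A14 and S100A16. The family was chosen from earlier results of these arrays in which S100P had been among the genes that differed, so the differences of its members are given as descriptions without p-values. Members were all probe sets, groups of short oligonucleotides that together measure a transcript, that the array annotation assigns to 1 of these symbols alone. This gave 13 probe sets of the 54613 on the array and 10 genes of 19775.

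The NME2-depleted cells were A549 transiently transfected with small interfering RNA (siRNA) targeting NME2 (3 arrays), and the control cells were A549 given control siRNA duplexes (3 arrays). Santa Cruz is named as the siRNA supplier in the series text but Dharmacon in the methods. The sequence of the siRNA and the time between transfection and harvest are given in none of the sources used here. Both groups are the same single cell line, and the arrays are called biological replicates without a description of separate cultures, so the p-values below reflect only the spread among these arrays, which may be technical. In RNA from a whole culture, fewer cells expressing a gene and less RNA per cell cannot be told apart.

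An S100 protein carries a pair of EF-hands, loops that bind calcium in most members, and most members act as dimers. In most members calcium opens a dimer surface that grips a target protein, such as an annexin, a myosin heavy chain or a cytoskeletal linker. Several members are also secreted. Most of the family's genes lie side by side on human chromosome 1, next to genes of the skin barrier, whereas S100P lies on chromosome 4. S100P, S100A2 and S100A4 are widely studied in tumours, where S100P and S100A4 are associated with cell movement.

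The bases in front of the transcription start are shown for 3 members: S100P and S100A2, whose arrays did not overlap between the groups, and S100A4, which showed almost no difference and carries the same TATAAA letters as S100P at nearly the same distance. Each run is the 250 bases before the start of the gene on the gene's own strand, taken from RefSeq with GRCh38.p14 coordinates, at chr4:6693628-6693877 on the plus strand for S100P, chr1:153565845-153566094 on the minus strand for S100A2 and chr1:153545807-153546056 on the minus strand for S100A4. Capitals mark TATAAA in S100P and S100A4, and TGACTCA, a match to TGANTCA, in S100A2.
S100P: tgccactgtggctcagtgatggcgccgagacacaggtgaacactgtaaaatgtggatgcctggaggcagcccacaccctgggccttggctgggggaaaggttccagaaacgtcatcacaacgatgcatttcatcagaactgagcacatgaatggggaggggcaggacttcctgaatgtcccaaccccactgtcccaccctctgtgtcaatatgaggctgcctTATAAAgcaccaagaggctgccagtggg
S100A2: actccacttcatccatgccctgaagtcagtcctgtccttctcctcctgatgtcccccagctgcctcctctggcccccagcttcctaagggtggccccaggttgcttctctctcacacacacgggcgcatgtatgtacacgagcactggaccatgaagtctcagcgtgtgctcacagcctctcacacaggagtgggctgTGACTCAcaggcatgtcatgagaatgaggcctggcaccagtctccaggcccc
S100A4: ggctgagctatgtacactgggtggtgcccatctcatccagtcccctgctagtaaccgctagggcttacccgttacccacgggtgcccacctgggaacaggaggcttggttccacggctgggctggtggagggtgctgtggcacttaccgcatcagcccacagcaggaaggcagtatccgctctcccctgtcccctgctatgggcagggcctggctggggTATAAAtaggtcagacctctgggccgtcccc

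RefSeq promoters were found for 10 of the 10 members, 14 promoters in all, because some members have several starts. The motifs below were searched on both strands in these 250 bases. TATAAA, the letters of a TATA box, stood 28 bases before the start of S100P, 31 before that of S100A4 and 29 before 1 start of S100A13. It was thus in 3 of the 14 member promoters, and in 10.7% of all 35116 promoters of the same length. TGANTCA, the core letters bound by AP-1 factors, lay 52 bases before 1 start of S100A2 and 225 before the start of S100A3. The other S100A2 promoter held no match to it. TGANTCA was thus in 2 of the 14 member promoters, and in 6.57% of all promoters. GGGCGG, the core of a GC box, was found in promoters of S100A3, S100A6, S100A10, S100A11, S100A13 and S100A16, in 6 of 14 promoters against 42.6% of all. TGACNNNGC, the core of the antioxidant response element, occurred in promoters of S100A13 and S100A14, against 10.9% of all promoters. In the members' promoters no match overlapped a match of another motif. A match describes the letters only and does not show that a factor binds there. The guanine and cytosine content was 55.6% in the S100P promoter, against a median of 58% over all promoters.

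The signals were scaled by the authors so that every array had the same trimmed mean, and the median signal of an array was 75.7 at the lowest and 85.2 at the highest. The silenced transcript was measured first. The NME2 probe set, which also carries the read-through transcript NME1-NME2, averaged 2937 ± 910.3 in NME2-depleted cells and 19432 ± 1592 in control cells (SD, n = 3 each). That was a log2 difference of -2.78 (SE 0.19, limma adjusted p = 0.00032). Of the 11 epithelial markers fixed for these cells, 10 were above the filter on dim probe sets, with NKX2-1, a lung lineage factor, below it. The filter lies at the median over all probe sets, a signal of 71.7, so passing it does not show expression. SFTPC, for example, passed with signals of 41.5 to 153.8. The summed signal of the 11 epithelial markers was 127845 to 152497 in NME2-depleted arrays and 132156 to 155864.5 in control arrays. The brightest genes in this sum were AKR1B10, KRT18, AKR1C1 and ALDH1A1. Of these, AKR1B10, AKR1C1 and ALDH1A1 encode metabolic enzymes, so the sum is no measure of epithelial identity. None of the 10 markers passed the limma threshold. The groups did not overlap in 3 of the 10, beside 20.6% of all tested genes. These were EPCAM, a cell adhesion molecule, at a log2 difference of 0.71 (limma adjusted p = 0.0884), CDH1, or E-cadherin, at 0.21 (limma adjusted p = 0.324) and the keratin KRT8 at -0.24 (limma adjusted p = 0.209). Of the markers of other cell types, some passed the filter, CD14, CD3E and ITGAM for leukocytes, COL1A1, DCN and LUM for fibroblasts and PECAM1 for endothelium. The summed signal of 5 leukocyte genes was 404.8 to 557.8 in NME2-depleted arrays and 473.2 to 552.9 in control arrays, and that of 6 fibroblast genes was 786.5 to 964.9 in NME2-depleted arrays and 602.5 to 798.7 in control arrays. For 4 endothelial genes it was 277.9 to 355.8 in NME2-depleted arrays and 200.6 to 303.8 in control arrays, and for 4 squamous genes 76.1 to 177.4 in NME2-depleted arrays and 51.9 to 114.7 in control arrays. PTPRC and LYZ of the leukocyte list, COL1A2, COL3A1 and PDGFRB of the fibroblast list, CDH5, KDR and VWF of the endothelial list and all 4 squamous genes were below the filter. The 3'/5' signal ratio of ACTB, a measure of RNA integrity, was 1.33, 1.34 and 1.40 in NME2-depleted arrays and 1.20, 1.30 and 1.23 in control arrays, so the groups did not overlap, whereas that of GAPDH was 1.01, 0.985 and 1.06 in NME2-depleted arrays against 0.993, 0.97 and 1.02 in control arrays. The part of these epithelial genes, of the fibroblast sum or of the ACTB ratio in the differences below was not tested.

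S100P was lower in NME2-depleted cells and had the largest difference of the members' brightest probe sets. S100P, a calcium sensor first found in placenta that binds ezrin and the receptor RAGE, had signals of 1260, 1956 and 1369 on the NME2-depleted arrays and 2521, 3295 and 2827 on the control arrays. The highest NME2-depleted array lay below the lowest control array, and replicate 2 was the highest of its group on both sides. The means were 1528 ± 374.5 in NME2-depleted cells and 2881 ± 390.1 in control cells (SD, n = 3 each). The mean log2 difference was -0.93 (SE 0.15), which is 1.91-fold lower, and the pooled standard deviation of its log2 signals was 0.28, the largest of the tested members. It was measured by 1 probe set, so no other probe set of the gene can be set beside it.

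S100A2 differed in the opposite direction. S100A2, which is found mainly in epithelial nuclei, had signals of 1089, 1127 and 1129 in NME2-depleted cells and 669.3, 805.1 and 962.2 in control cells. The groups did not overlap, and the NME2-depleted arrays lay closer together than the control arrays, with a log2 standard deviation of 0.03 in NME2-depleted cells against 0.26 in control cells. The log2 difference was 0.47 (SE 0.13), which is 1.39-fold higher.

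S100A3, S100A4 and S100A6 lie close to S100A2 on chromosome 1, S100A3 next to it, and their brightest probe sets overlapped between the groups. S100A3, a cysteine-rich member best known from the hair cuticle, had 1844, 2089.6 and 2075 in NME2-depleted cells against 1886, 2125 and 2580.0 in control cells, a log2 difference of -0.12 (SE 0.11). S100A4, which binds non-muscle myosin and is known for its link to metastasis, had 32149, 36073 and 40019.5 in NME2-depleted cells against 32295, 37512 and 37883 in control cells, with a log2 difference of 0.01 (SE 0.09). S100A6, or calcyclin, a partner of the adaptor CACYBP, had 30169, 32408.5 and 36078 in NME2-depleted cells against 28345, 33864 and 35886 in control cells, with a log2 difference of 0.01 (SE 0.10). For S100A4 and S100A6, replicate 1 was the lowest and the differences between arrays of 1 group were wider than that between the group means. Both had signals near the top of the scale, since the highest signal on any array was 48117, and the array's response there may be compressed. The S100A4 probe set is of a kind that can also match other transcripts.

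By their brightest probe sets, S100A10 and S100A11, partners of annexin A2 and annexin A1, were nearly level in both groups. S100A10, known as p11, had 21303, 24916 and 23627.5 in NME2-depleted cells against 21274, 24110.4 and 20814 in control cells, a log2 difference of 0.08 (SE 0.08). S100A11 had 19928, 19021 and 21428 in NME2-depleted cells against 19144, 18709 and 22027 in control cells, a log2 difference of 0.01 (SE 0.08). In both genes the groups overlapped.

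The remaining members lie at the other end of the cluster. S100A13, which takes part in the export of FGF1 and interleukin 1 alpha, had 3741, 3943 and 3746 in NME2-depleted cells against 3469.9, 3572 and 3952 in control cells, a log2 difference of 0.06 (SE 0.07). S100A16, a widely expressed member, had 10286.5, 11348 and 11150.0 in NME2-depleted cells against 10587, 10789 and 12874 in control cells, a log2 difference of -0.06 (SE 0.08). S100A14, an epithelial member, had only 39.2, 38.0 and 72.3 in NME2-depleted cells against 47.9, 38.2 and 59.4 in control cells, under the filter of 71.7, and was not tested. None of these 3 genes separated the groups.

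**Figure D1:**
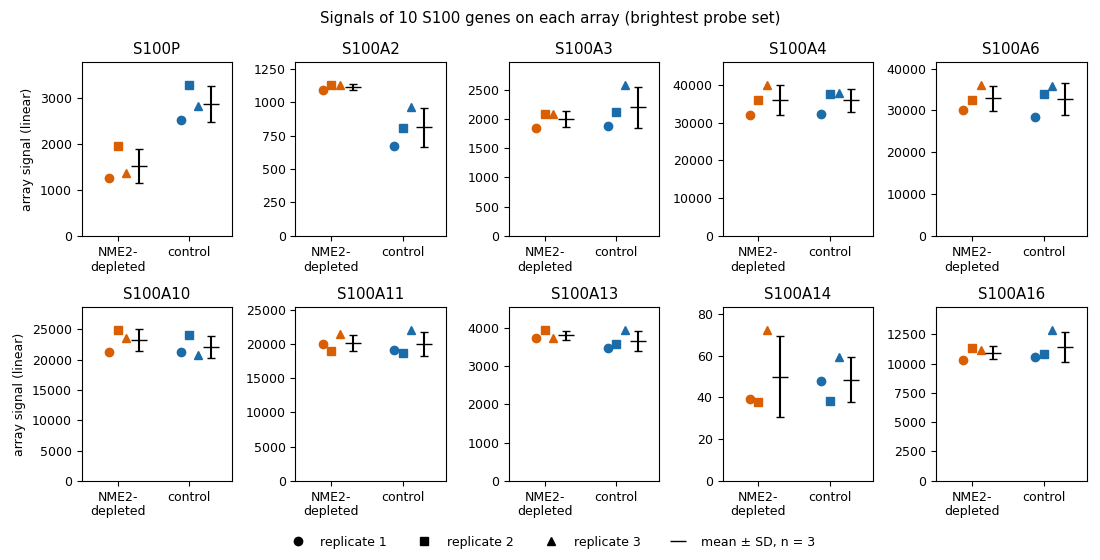
Array signal (linear axis from 0, its own range in each panel) of the brightest probe set of each of the 10 members, with NME2-depleted arrays in orange on the left and control arrays in blue on the right, and the mean ± SD (n = 3) beside them. S100P (1260 to 1956 in NME2-depleted, 2521 to 3295 in control) and S100A2 (1089 to 1129 in NME2-depleted, 669.3 to 962.2 in control) are the members whose groups stand apart.

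S100A6, S100A10 and S100A13 had a second, dimmer probe set, and for S100A6 and S100A10 it did not follow the bright one. The second S100A6 probe set had 120.2, 115.6 and 155.0 in NME2-depleted cells against 72.9, 79.0 and 90.6 in control cells, a log2 difference of 0.68 (SE 0.25), or 1.6-fold higher. The second S100A10 probe set had 572.4, 701.5 and 565.2 in NME2-depleted cells against 444.2, 508.4 and 433.3 in control cells, a log2 difference of 0.40 (SE 0.13), or 1.32-fold higher. In both, every NME2-depleted array was above every control array, whereas the bright probe sets of the same genes differed by 0.01 and 0.08 on the log2 scale. The second S100A13 probe set had 96.7, 120.0 and 114.3 in NME2-depleted cells against 92.2, 110.4 and 102.2 in control cells, with a log2 difference of 0.12 (SE 0.24). Which transcripts the dim probe sets detect was not tested, and their signals cannot be set against those of the bright ones.

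**Figure D2:**
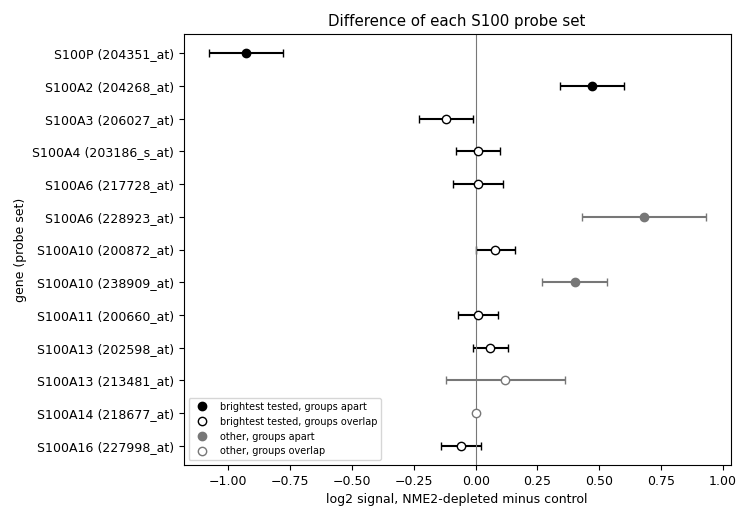
Log2 difference, NME2-depleted minus control, of each of the 13 member probe sets, with bars of 1 SE from the limma fit (S100A14, under the filter, has none); filled points are probe sets whose groups did not overlap, black points represent the gene. S100P is at -0.93, S100A2 at 0.47 and the second probe sets of S100A6 and S100A10 are at 0.68 and 0.40.

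Over the 9 tested members the median log2 difference was 0.01, against 0.00 over all 12406 tested genes. The mean was higher in NME2-depleted cells for 6 members and lower for 3. Each array's median over the members, centred on each gene's mean, was -0.11, 0.01 and 0.06 in NME2-depleted cells and -0.11, 0.03 and 0.14 in control cells, so the members as a group overlapped fully. Limma called 1 of the 9 members (11.1%) at an adjusted p under 0.05, S100P, which was lower, where 0.54% of all tested genes were called in either direction. As the family was chosen from this contrast, nothing is read from that count. The groups did not overlap in 2 of the 9 members (22.2%), beside 20.6% of all tested genes, a share near the background. They did not overlap in 4 of the 12 tested member probe sets (33.3%), beside 18.6% of all tested probe sets, and these 12 include the pairs of probe sets that share a gene.

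Since the S100P groups did not overlap, leaving out an array could not change the sign of its difference. The size and the call did vary. The S100P difference was -0.81 without NME2-depleted replicate 1, -0.87 without NME2-depleted replicate 3, -0.83 without control replicate 2 and -0.94 without control replicate 3, and in each of these fits 0 members were called. S100P was called without NME2-depleted replicate 2 (-1.12) and without control replicate 1 (-1.03). As above, nothing is read from these calls. The S100A2 difference lay between 0.34 and 0.60 over the same and other settings.

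**Figure D3:**
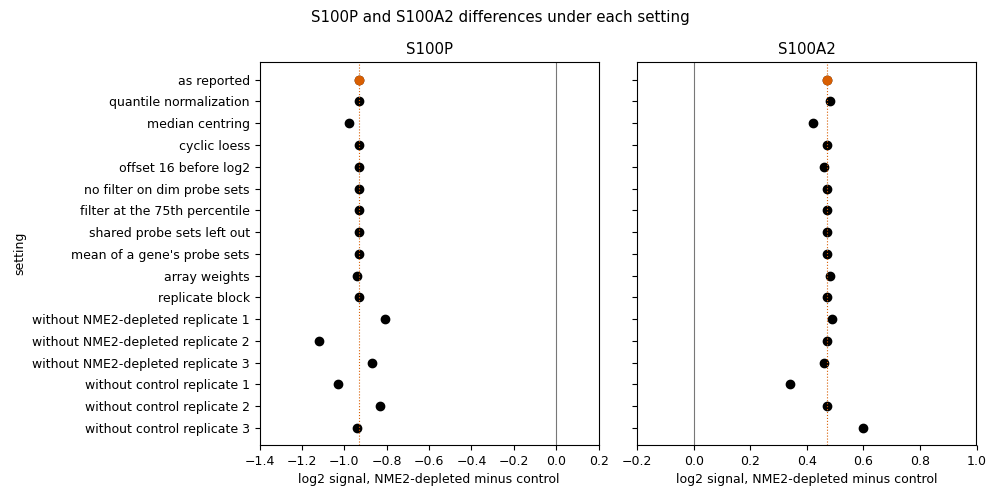
Log2 difference, NME2-depleted minus control, of S100P (left) and S100A2 (right) under the reported setting (orange, dotted line) and 16 alternatives (black). S100P runs from -1.12 to -0.81 and S100A2 from 0.34 to 0.60, and the widest shifts come from leaving out 1 array.

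The rest of the family was dim in these cells. Of 11 further S100 genes looked for, 10 had a probe set of their own, 13 probe sets in all, and 0 passed the filter. Their mean signals over the 6 arrays ran between 2.32 and 73.2, under or near 71.7 on the signal scale, and they were below it on the log2 scale used for filtering. S100A9, which pairs with S100A8 in the neutrophil protein calprotectin, had 96.8, 32.7 and 16.4 in NME2-depleted cells against 12.3, 48.9 and 29.5 in control cells, and the brighter S100A8 probe set had 24.7, 24.8 and 45.6 in NME2-depleted cells against 38.5, 21.8 and 5.4 in control cells. S100A7A, a psoriasin gene, had the brightest probe set of this group, with 71.1, 55.1 and 47.7 in NME2-depleted cells against 91.8, 104.7 and 69.1 in control cells. Those groups overlapped. The others were S100A1, S100A5, S100A7, S100A12, S100B, S100G and S100Z.

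The proteins that S100 dimers bind were compared next, from a list set by function. Of 30 partners, 22 were tested, and limma called 0 at an adjusted p under 0.05, where 0.54% of all tested genes were called. At an unadjusted p under 0.05 there were 5 (22.7%), beside 15% of all tested genes. The methods' t-test gave 5 unadjusted, beside 1596 of all 12406 tested genes, and 0 after Benjamini-Hochberg adjustment. Their median log2 difference was -0.06, with 9 higher and 13 lower in mean. ANXA6, an annexin that binds S100A6, had 1169.5, 1603 and 1365 in NME2-depleted cells against 1030.2, 900.8 and 1022 in control cells, a log2 difference of 0.48 (SE 0.12, limma adjusted p = 0.117). STK38, a kinase that S100B activates, was at -0.23 (limma adjusted p = 0.246), MYH9, the non-muscle myosin heavy chain bound by S100A4, at -0.35 (limma adjusted p = 0.255), and KCNK3, a potassium channel carried to the membrane by S100A10, at -0.35 (limma adjusted p = 0.311). The NME2-depleted arrays did not overlap the control arrays in 7 of the 22 partners (31.8%, beside 20.6% of all tested genes), namely these 4 and IQGAP1, CACYBP and AHNAK. Of the partners tied to single members, EZR, the ezrin bound by S100P, was at 0.08 (limma adjusted p = 0.721), S100PBP, an S100P-binding protein, at 0.11 (limma adjusted p = 0.654), CACYBP, bound by S100A6, at -0.13 (limma adjusted p = 0.448), ANXA2, bound by S100A10, at -0.08 (limma adjusted p = 0.754) and ANXA1, bound by S100A11, at -0.03 (limma adjusted p = 0.854). These were chosen for their link to a member after their values were seen, and AGER, which encodes RAGE, was below the filter.

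Factors known to act on S100 genes were also without a call. Of 21, 17 were tested, and limma called 0, where 0.54% of all tested genes were called. At an unadjusted p under 0.05 there was 1 (5.88%), beside 15% of all tested genes. The methods' t-test gave 3 unadjusted, beside 1596 of all 12406 tested genes, and 0 after adjustment. The median log2 difference was -0.04. TCF7L2, a partner of beta-catenin in Wnt signalling, had 5265, 5502.5 and 5218 in NME2-depleted cells against 4369, 4885 and 4502 in control cells, a log2 difference of 0.22 (limma adjusted p = 0.216). CTNNB1, beta-catenin itself, was at 0.22 (limma adjusted p = 0.397), STAT3, a cytokine-activated factor, at -0.19 (limma adjusted p = 0.412) and CEBPB, a bZIP factor, at -0.11 (limma adjusted p = 0.482). The groups did not overlap in 3 of the 17 (17.6%, beside 20.6% of all tested genes), TCF7L2, CEBPB and NFKB1.

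Other proteins with EF-hands gave the lowest p-values among the lists. Of 57, 47 were tested, and limma called 0, where 0.54% of all tested genes were called. At an unadjusted p under 0.05 there were 11 (23.4%), beside 15% of all tested genes. The methods' t-test gave 9 unadjusted, beside 1596 of all 12406 tested genes, and 0 after adjustment. The median log2 difference was 0.02, with 27 higher and 20 lower in mean. EPS15, an endocytic adaptor, had 1688, 1797 and 1814 in NME2-depleted cells against 1294, 1327 and 1354 in control cells, a log2 difference of 0.41 (SE 0.08, limma adjusted p = 0.0542). RCN2, a calcium-binding protein of the secretory pathway, had 7957, 8181 and 8916 in NME2-depleted cells against 6252, 6426 and 6816 in control cells, a log2 difference of 0.36 (SE 0.07, limma adjusted p = 0.0579). In both, all NME2-depleted arrays lay above all control arrays, and both missed the threshold narrowly. SLC25A13, a mitochondrial aspartate and glutamate carrier with EF-hands, was at -0.31 (limma adjusted p = 0.105), and RCN1, a relative of RCN2, at 0.18 (limma adjusted p = 0.299). The widest differences of the list, named after their values were seen, were those of NCALD, a neuronal calcium sensor, at 0.77 (SE 0.29, limma adjusted p = 0.304) and MYL9, a myosin light chain, at -0.48 (SE 0.20, limma adjusted p = 0.341). The groups did not overlap in 14 of the 47 (29.8%, beside 20.6% of all tested genes).

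**Figure D4:**
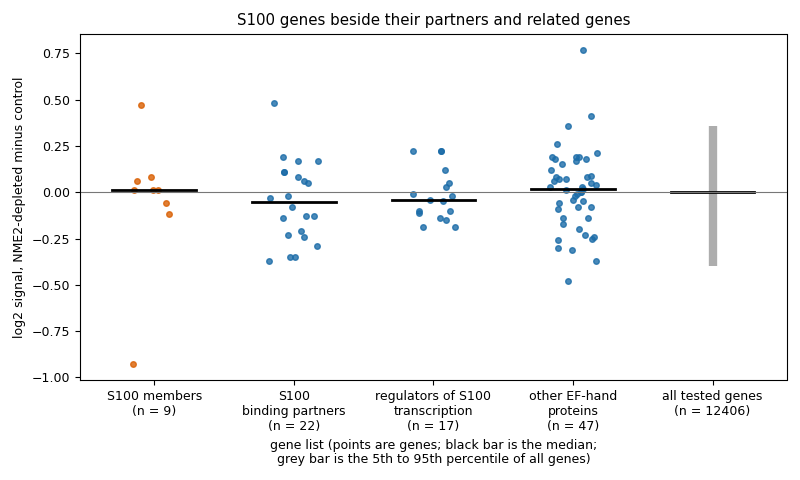
Log2 difference, NME2-depleted minus control, of the tested S100 members (orange, 9), S100 binding partners (22), regulators of S100 transcription (17) and other EF-hand proteins (47), each point a gene and each black bar the median, beside all 12406 tested genes (grey bar, 5th to 95th percentile, -0.40 to 0.36). S100P at -0.93 and S100A2 at 0.47 lie outside that grey range, as do ANXA6 (0.48), EPS15 (0.41), NCALD (0.77) and MYL9 (-0.48), and the list medians lie between -0.06 and 0.02.

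The genes with the profile most like that of S100P were found by the root mean square distance between log2 signals over the 6 arrays, each gene centred on its mean. The nearest of the tested genes were PGBD2 (distance 0.13), H2BC6 (0.14), H1-2 (0.14), SLC40A1 (0.15) and ID1 (0.15). SLC40A1, the iron exporter ferroportin, had 960.5, 1212 and 1042 in NME2-depleted cells against 1912, 1963 and 1914 in control cells, and ID1, an inhibitor of bHLH factors, had 1871, 3286 and 2078 in NME2-depleted cells against 3774.5, 4808 and 3348 in control cells. H2BC6 and H1-2 encode histones, with log2 differences of -0.93 and -0.96, and PGBD2, a gene derived from a transposase, had -0.77. PGBD2, H2BC6, SLC40A1 and ID1 shared with S100P a replicate 2 above the other arrays of its group on both sides, whereas the highest control array of H1-2 was replicate 3. Likeness over 6 arrays follows largely from the shared difference between the groups and is given as a description. As the genes were picked for closeness on all 6 arrays, nothing is read from the shared replicate pattern.

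**Figure D5:**
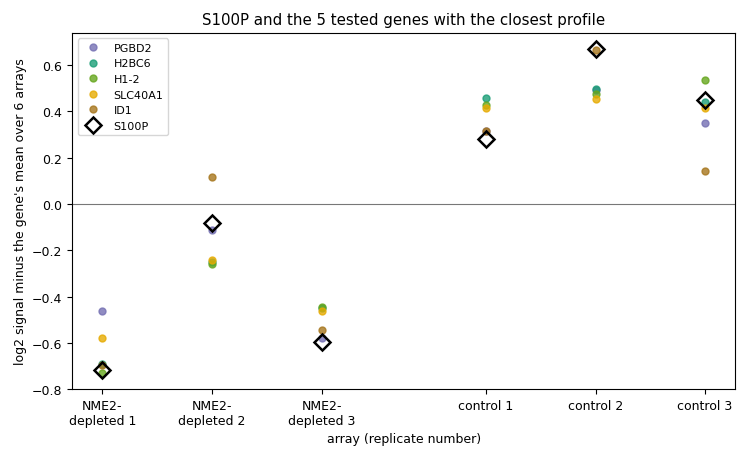
Log2 signal of S100P (open diamonds) and of the 5 tested genes with the closest profile (coloured points), each minus its own mean over the 6 arrays, on the NME2-depleted arrays (left) and the control arrays (right). In S100P, NME2-depleted replicate 2 (1956) lies nearest the control arrays, whose lowest is 2521.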

How the data were processed

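Total RNA was copied into biotin-labelled cRNA and hybridised to Affymetrix HG-U133 Plus 2.0 arrays. The deposited values are intensity signals on a linear scale, made by the authors with GCOS 1.1.1 according to the submitters' processing notes. They had been scaled to a mean of 500.06 to 500.07 after trimming 2% at each end, which hides any shift common to all transcripts. Of 54675 probe sets 62 controls were left out. A floor of 1 was applied before log2 (0.327% of values lay under it). The 27307 probe sets whose mean log2 signal reached the median over all probe sets, equal to a signal of 71.7, were tested. The annotation, of 2016, gave 1 symbol for 41091 probe sets, and the brightest tested one stood for its gene. At most 0.297% of values were identical in any of the 15 array pairs. Differences are NME2-depleted minus control on the log2 scale with the SE of limma 3.58.1 in R 4.3.3 (lmFit, eBayes with an intensity trend), folds are 2 to the power of the difference, and p-values are two-sided with Benjamini-Hochberg adjustment over all tested probe sets at 0.05. An exact permutation test of 3 against 3 arrays cannot go below p = 0.1. The fit was tested on simulated data. Arrays have no read depth, and their number limits the precision.

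The members and gene lists were chosen with earlier results of these data known. Named were all members, NME2, the other S100 genes, up to 4 genes of lowest p from each list and the 5 profiles closest to S100P; markers, the tested genes of the chromosome 1 interval, genes whose groups did not overlap and those said to be named after their values were seen fall outside this rule. Promoters came from RefSeq (GRCh38.p14). Alternatives were quantile, median and cyclic loess normalization, an offset of 16, other filters, shared probe sets left out, averaging the probe sets of a gene, no intensity trend, array weights, a replicate block, leaving out each array and the methods' t-test. Probe-level scans were not used here.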

Additional observations from a re-analysis of the deposited data

How the results depend on the processing

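The S100P log2 difference stayed within 1 SD of -0.93 under all 16 alternatives that give a difference, and the median of the members lay between -0.07 and 0.07. Several of the 16 could not move S100P. It has 1 probe set, so other filters, leaving out shared probe sets and averaging return the same value, as does a balanced replicate block. The number of members called, 1 as reported, was 0 with no filter on dim probe sets, 0 when the probe sets of a gene were averaged, 0 with no intensity trend and 0 by the methods' t-test after Benjamini-Hochberg adjustment, 2 by that t-test unadjusted (S100A2 and S100P), and between 0 and 1 when 1 array was left out. Over all tested genes limma called 67 as reported, 21 with no filter, 29 with the mean of probe sets, 0 with no intensity trend, 110 with the filter at the 75th percentile and 11 to 43 when 1 array was left out, and the t-test gave 1596 unadjusted and 0 adjusted. With no filter more genes were tested (19775 against 12406); the cause of the other changes was not tested. Of the other EF-hand proteins, 0 as reported, 1 was called with quantile normalization and 1 with cyclic loess (RCN2 in both), 2 with the filter at the 75th percentile and 2 with array weights (EPS15 and RCN2 in both), and 9 by the unadjusted t-test, which also gave 5 binding partners and 3 regulators. The mean of probe sets moved S100A6 to 0.35 and S100A10 to 0.24.

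Arrays with the same replicate number deviated together only weakly (correlations 0.11, 0.08 and 0.07), and the reported fit used no replicate block. Each array nevertheless correlated best with its own number, and the replicate block raised the genes called from 67 to 284. What arrays of the same number share was not tested. With the replicate block S100P was at -0.93 and remained the 1 member called, the median of the members was 0.01, 3 other EF-hand proteins were called (ACTN4, EPS15 and RCN2), 0 binding partners, 0 regulators and 0 interval genes, and 284 genes in all. Signals near the top of the scale (S100A4, S100A6) and under the filter (S100A14) limit what could be seen.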

Other observations

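The 9 members on chromosome 1 span 1651447 bases, from 151982915 to 153634361 in GRCh38.p14, together with genes of the epidermal barrier. Of 47 protein-coding genes in this interval that are not S100 genes, 24 had a probe set of their own and 5 were tested. Limma called 0 of these 5, where 0.54% of all tested genes were called. At an unadjusted p under 0.05 there were 0, beside 15% of all tested genes, and 0 by the methods' t-test. All 5 were dim, with signals on single arrays from 60.1 to 227.2 and the filter at 71.7. SPRR1A, a cornified envelope precursor, had a log2 difference of -0.48 (limma adjusted p = 0.492). LCE3D was at 0.41, LCE1E at 0.38, SPRR4 at -0.22 and PGLYRP4 at 0.03. The groups did not overlap in 1 of the 5, LCE3D, beside 20.6% of all tested genes. Its signals were 75.3 to 111.8 in NME2-depleted cells and 60.1 to 72.3 in control cells. Of the S100 fused-type genes, such as FLG (filaggrin), 5 had a probe set and 0 were tested.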
